A study of Mus musculus with 16 samples.

Results

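The 9 enzymes described here supply the cell with NADPH or carry sugars through the pentose phosphate pathway. They are G6pdx, Pgls, Pgd, Rpia, Tkt, Taldo1, Me1, Idh1 and H6pd, 9 of the 27703 gene names on a mouse expression array. They were taken as every non-control probe that carries their name: 12 probes held the names of 8 of them, and Me1 was found under its older name Mod1 with 2 further probes. Of these 14 probes, the brightest of each gene gave its value, and all 9 were well above background in the lung channel on all 16 arrays.

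Lung RNA came from 16 female A/J mice, an inbred strain that develops lung tumours readily, in 4 groups of 4. NNK+SECY mice received both treatments below, with the selenocystine diet begun 3 days after the injection. SECY mice ate selenocystine, a selenium-containing amino acid, at 15 ppm for 10 days. NNK mice received 1 intraperitoneal injection of the tobacco-specific nitrosamine NNK, 10 uM in 0.2 mL of saline, and stayed on the basal diet. Untreated mice ate the basal AIN-76 diet alone, which holds 0.35 ppm selenium and underlies the diet of every group. The time between NNK and death was 13 days. Ages and the vehicle given to mice without NNK are not given in the sources used here.

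Each array compared the lung RNA of 1 mouse, in Cy5, with a pool made in equal parts from the 4 Untreated mice, in Cy3. Values are therefore log2(Cy5/Cy3), with 0 standing for the Untreated pool, and no dyes were swapped. Differences between groups came from a limma model over all 16 arrays, and a gene was called at an adjusted p under 0.05 over the 21248 genes tested. By the slide barcode in the file headers, NNK+SECY and SECY mice shared slides 5 to 8, and NNK and Untreated mice shared slides 1 to 4, so that the diet and this set of barcodes cannot be told apart. Arrays with the same barcode were scanned on different days, so whether it marks 1 physical slide was not settled. Both NNK groups were scanned on 1 day and both groups without NNK on another, so that NNK and the scan day cannot be told apart either. In whole lung, fewer cells of a type and less RNA per cell cannot be told apart.

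Lung markers were present, with all 8 alveolar type 2 markers, all 6 alveolar type 1 markers and all 5 club cell markers well above background on every array. Among the arrays, SECY 3 stood apart: its mean correlation with the other SECY arrays over genes was 0.0315, against 0.277 to 0.389 for the others of that group. Markers of liver, a tissue that should be absent, also gave very unequal signal. The summed log2 signal of 3 liver markers (Alb, Apoa2 and Fgb) was 15.55 on NNK+SECY 3 and 13.44 on SECY 4, against 7.88 to 11.30 on the other 14 arrays.

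Glucose 6-phosphate dehydrogenase and 6-phosphogluconate dehydrogenase carry out the NADPH-producing steps of the oxidative branch of the pentose phosphate pathway, with a lactonase between them. The non-oxidative branch then reshuffles the resulting pentose phosphates into glycolytic intermediates and ribose. Cytosolic malic enzyme and isocitrate dehydrogenase make NADPH outside this pathway. NADPH drives the glutathione and thioredoxin systems, quinone reduction and lipid synthesis. In mice and human cells several of these genes are known targets of the transcription factor NRF2, which binds antioxidant response elements.

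The promoters of the 4 genes that rose on selenocystine are shown because 3 of them hold the core of such an element. Each is RefSeq reference sequence of build GRCm38.p6, from 250 bases before an annotated transcript start to 30 bases after it, on the strand of the gene, with the match in capitals. The reference genome is not that of the A/J strain. The G6pdx window lies at chrX:74428851-74429130 on the minus strand. The Pgd window lies at chr4:149166053-149166332 on the minus strand and belongs to the second of 2 annotated starts. The window at the first Pgd start holds no match. The Me1 window lies at chr9:86695885-86696164 on the minus strand, at the first of 2 annotated starts. The Taldo1 window, which holds no match, lies at chr7:141391910-141392189 on the plus strand.
G6pdx: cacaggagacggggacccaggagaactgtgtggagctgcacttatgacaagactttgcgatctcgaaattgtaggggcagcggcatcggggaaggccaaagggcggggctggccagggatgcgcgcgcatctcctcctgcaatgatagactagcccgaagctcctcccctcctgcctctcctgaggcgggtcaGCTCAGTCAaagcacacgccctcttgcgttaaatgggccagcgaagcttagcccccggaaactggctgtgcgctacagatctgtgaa
Pgd: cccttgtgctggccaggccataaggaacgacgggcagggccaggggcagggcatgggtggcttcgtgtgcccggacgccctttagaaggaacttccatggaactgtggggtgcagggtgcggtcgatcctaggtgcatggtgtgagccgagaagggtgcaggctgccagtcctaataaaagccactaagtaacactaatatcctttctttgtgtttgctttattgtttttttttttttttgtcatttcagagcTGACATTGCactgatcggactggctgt
Me1: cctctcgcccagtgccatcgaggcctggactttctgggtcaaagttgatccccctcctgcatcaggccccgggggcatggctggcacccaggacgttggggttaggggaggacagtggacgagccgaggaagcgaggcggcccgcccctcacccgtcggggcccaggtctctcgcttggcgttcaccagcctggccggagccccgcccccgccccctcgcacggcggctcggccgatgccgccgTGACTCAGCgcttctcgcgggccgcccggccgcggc
Taldo1: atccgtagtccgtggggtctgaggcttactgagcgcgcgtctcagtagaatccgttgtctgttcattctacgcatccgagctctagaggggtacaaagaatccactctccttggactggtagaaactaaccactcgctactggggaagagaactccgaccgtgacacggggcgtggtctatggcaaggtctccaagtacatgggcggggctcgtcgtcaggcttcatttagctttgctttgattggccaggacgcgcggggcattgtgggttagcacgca

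The motif searched was TGACNNNGC and its reverse complement GCNNNGTCA, over windows of 300 bases that reach 50 bases past the start. All 9 enzymes had at least 1 window, 12 in total. Of these, 3 windows held a match, 1 each of G6pdx, Pgd and Me1. In the whole table the motif was found in 4071 of 32851 windows, or 12.4%. The first base of the match stood at position -57 from the start in G6pdx (GCTCAGTCA, the reverse form), at -6 in Me1 (TGACTCAGC) and at 3 in Pgd (TGACATTGC). The Pgd match thus lies past an annotated start and not in the bases before it. A match is a run of letters and does not show that a factor binds there.

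Selenocystine was accompanied by higher mRNA of 4 of the 9 enzymes. Pgd and Me1 rose by 1.38-fold and 1.36-fold, and Taldo1 and G6pdx by 1.21-fold and 1.18-fold, when the 8 mice on selenocystine were set against the 8 on the basal diet. NNK was accompanied by no called change in any of them. Over all genes, 0.622% were called higher in that 8-against-8 contrast, which was added after the data were seen. The 9 enzymes had a median log2 change of 0.189, against -0.00397 over all genes tested, and all 9 were above 0, as were 47.5% of all genes. Without SECY 3, H6pd was at -0.01 in that contrast and the other 8 stayed above 0. With all arrays, 8 of the 9 were above 0 in SECY against Untreated, as were 48.1% of all genes. In NNK+SECY against NNK it was also 8 of the 9, with 48.9% of all genes.

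**Figure D1:**
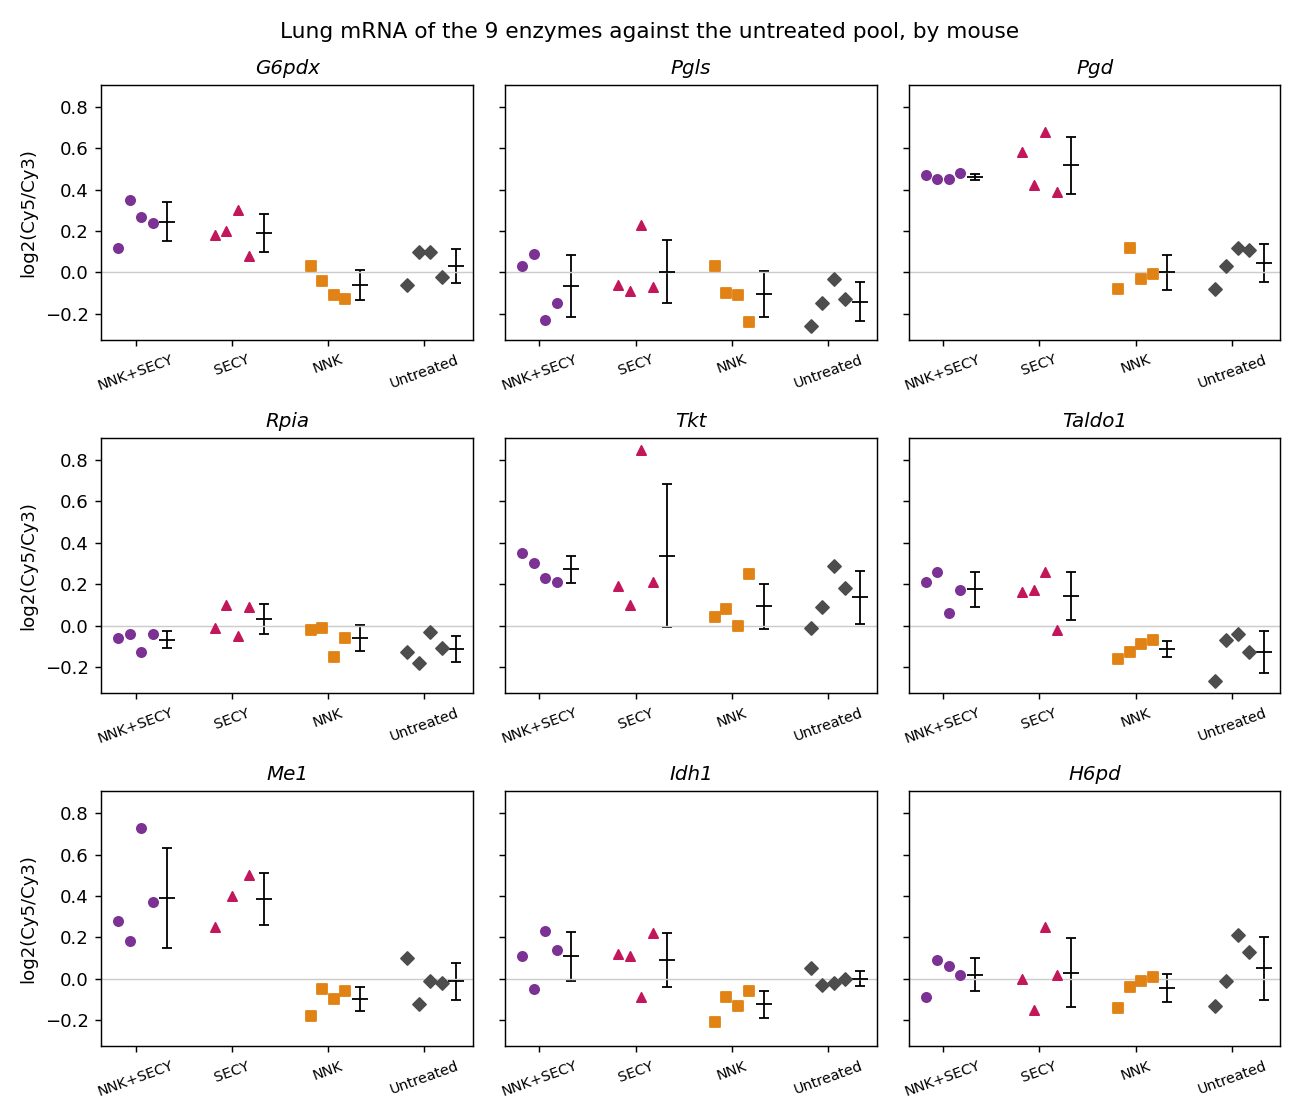
Log2(Cy5/Cy3) of each enzyme by group, with 1 point per mouse and the mean ± SD beside each group (n = 4, and 3 for Me1 in SECY). The points of both selenocystine groups lie above all points of both basal-diet groups for Pgd, Taldo1 and Me1.

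G6pdx, glucose 6-phosphate dehydrogenase, catalyses the entry step of the oxidative branch. Its log2 ratios were 0.12, 0.35, 0.27 and 0.24 in NNK+SECY mice, 0.18, 0.20, 0.30 and 0.08 in SECY mice, 0.03, -0.04, -0.11 and -0.13 in NNK mice, and -0.06, 0.10, 0.10 and -0.02 in Untreated mice. Every NNK+SECY value was above every NNK value, whereas the SECY and Untreated values overlapped at 0.08 and 0.10. G6pdx rose in NNK+SECY against NNK by 0.31 ± 0.06 on the log2 scale (SE, n = 4 per group, limma adjusted p = 0.0115). In SECY against Untreated the difference was 0.16 ± 0.06 and was not called (adjusted p = 0.453). It was 0.24 ± 0.04 over the 8 mice per diet (adjusted p = 0.00468). The call in NNK+SECY against NNK was lost without NNK 4 (0.29, adjusted p = 0.0525) and without NNK+SECY 2 (0.27, adjusted p = 0.0517). The mouse genome holds a near-identical retrogene, G6pd2, whose own probe differed by -0.01 in NNK+SECY against NNK and by 0.07 in SECY against Untreated, neither called. Hybridisation of both transcripts to 1 probe was not tested.

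Pgls, the lactonase that follows G6pdx, was not called in any comparison. Its ratios ran between -0.23 and 0.09 in NNK+SECY, -0.09 and 0.23 in SECY, -0.24 and 0.03 in NNK, and -0.26 and -0.03 in Untreated mice. Its difference over the 8 mice per diet was 0.09, with a 95% interval of -0.04 to 0.22, and 0.05 without SECY 3.

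Pgd, 6-phosphogluconate dehydrogenase, makes the second NADPH of the branch and releases ribulose 5-phosphate. Its log2 ratios were 0.47, 0.45, 0.45 and 0.48 in NNK+SECY mice, 0.58, 0.42, 0.68 and 0.39 in SECY mice, -0.08, 0.12, -0.03 and -0.01 in NNK mice, and -0.08, 0.03, 0.12 and 0.11 in Untreated mice. The lowest mouse on selenocystine, at 0.39, stood well above the highest on the basal diet, at 0.12. Pgd rose by 0.47 ± 0.07 in SECY against Untreated (adjusted p = 0.00218) and by 0.46 ± 0.07 in NNK+SECY against NNK (adjusted p = 0.00123). It was the one enzyme of the 9 called in SECY against Untreated, where 0.212% of all genes were called higher. It was 23rd by p among the 21242 genes with a p in that comparison and 50th of 21243 in NNK+SECY against NNK. The 4 NNK+SECY mice had nearly the same value (SD 0.01), while the SD of the SECY mice was 0.14. Without SECY 3, the SECY mouse with the highest value, Pgd still differed by 0.42 from Untreated (adjusted p = 0.00384). That call was met in 29 of 30 alternative settings and lost when only the arrays of these groups were fitted (0.47, adjusted p = 0.0927). The settings overlap and are not independent of each other.

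In the non-oxidative branch, Taldo1 rose, and Tkt and Rpia were not called. Taldo1, transaldolase, moves 3-carbon units between sugar phosphates. Its log2 ratios were 0.21, 0.26, 0.06 and 0.17 in NNK+SECY mice, 0.16, 0.17, 0.26 and -0.02 in SECY mice, -0.16, -0.13, -0.09 and -0.07 in NNK mice, and -0.27, -0.07, -0.04 and -0.13 in Untreated mice. The closest values across the diets were -0.02 in SECY 4 and -0.04 in Untreated 3. Taldo1 rose by 0.29 ± 0.07 in NNK+SECY against NNK (adjusted p = 0.0288) and by 0.30 ± 0.07 in NNK+SECY against Untreated (adjusted p = 0.0275). In SECY against Untreated the size was like these, 0.27 ± 0.07, but the adjusted p was 0.113. Without SECY 4, the lowest of its group, it was 0.32 with an adjusted p of 0.0434. The Taldo1 call in NNK+SECY against NNK was met in 20 of 30 alternative settings, with values of 0.26 to 0.36, whereas G6pdx was called in 28 of 30 and Pgd and Me1 in all 30. It was lost without any 1 of the NNK arrays and without NNK+SECY 1, 2 or 4, with adjusted p of 0.0541 to 0.111. It was also lost with the scanner software's processed signals (adjusted p = 0.0812) and with median centring in place of loess (adjusted p = 0.213). The authors' deposited table, which holds nearly the same ratios as the scanner software, gave an adjusted p of 0.0848. The Taldo1 call in NNK+SECY against Untreated was met in 21 of 30 settings. With median centring that difference was 0.18 (adjusted p = 0.388), and in the 8 other settings without a call it was 0.25 to 0.30 (adjusted p of 0.0568 to 0.0993).

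Tkt, transketolase, moves 2-carbon units and had the largest standard error of the 9, 0.12 on the log2 scale. Its log2 ratios were 0.35, 0.30, 0.23 and 0.21 in NNK+SECY mice, 0.19, 0.10, 0.85 and 0.21 in SECY mice, 0.04, 0.08, 0.00 and 0.25 in NNK mice, and -0.01, 0.09, 0.29 and 0.18 in Untreated mice. A single mouse, SECY 3, stood far above the other 15. The difference between SECY and Untreated was 0.19 with that array and 0.02 without it, not called either way (adjusted p = 0.777 and 0.938). Over the 8 mice per diet it was 0.19 with SECY 3 and 0.10 without it. The difference between NNK+SECY and NNK was 0.18 ± 0.12, with a 95% interval of -0.08 to 0.44. Both other Tkt probes were dim, well above background in the lung channel on 15 and on 2 of the 16 arrays, and the brighter of them differed by 0.03 and 0.02 in the same comparisons.

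Rpia, ribose 5-phosphate isomerase, leads towards nucleotide synthesis. Its ratios ran between -0.13 and -0.04 in NNK+SECY, -0.05 and 0.10 in SECY, -0.15 and -0.01 in NNK, and -0.18 and -0.03 in Untreated mice. It differed by 0.15 ± 0.05 in SECY against Untreated (adjusted p = 0.344) and by -0.01 ± 0.05 in NNK+SECY against NNK (adjusted p = 0.983). The interaction, which is how far the NNK+SECY minus SECY difference exceeds the NNK minus Untreated difference, was -0.15 for Rpia, with an unadjusted p of 0.047 and an adjusted p of 1.

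Of the NADPH producers outside the pathway, Me1 rose and Idh1 was not called. Me1, cytosolic malic enzyme, turns malate into pyruvate while making NADPH and is abundant in liver and fat. Its log2 ratios were 0.28, 0.18, 0.73 and 0.37 in NNK+SECY mice, 0.25, 0.40 and 0.50 in 3 SECY mice, -0.18, -0.05, -0.10 and -0.06 in NNK mice, and 0.10, -0.12, -0.01 and -0.02 in Untreated mice. The spot of SECY 2 was flagged as an outlier by the scanner software and has no value. All 7 mice on selenocystine with a value stood above the 8 on the basal diet. Me1 rose by 0.49 ± 0.09 in NNK+SECY against NNK (adjusted p = 0.00992) and by 0.40 ± 0.09 in NNK+SECY against Untreated (adjusted p = 0.0441). In SECY against Untreated it differed by 0.39 ± 0.10, with an adjusted p of 0.14 over 3 SECY arrays. The call against NNK mice was met in all 30 alternative settings and that against Untreated mice in 12 of 30.

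The highest Me1 values of NNK+SECY and of SECY came from NNK+SECY 3 and SECY 4, the arrays with the most liver marker signal. With both arrays left out, Me1 differed by 0.37 in NNK+SECY against NNK (adjusted p = 0.00924), by 0.29 in NNK+SECY against Untreated (adjusted p = 0.054) and by 0.34 in SECY against Untreated (adjusted p = 0.132). Its difference over the 8 mice per diet, 0.44 with all arrays, was then 0.36 (adjusted p = 0.00162). On the 5 selenocystine arrays that remained with a value, Me1 lay between 0.18 and 0.40, still above every basal-diet array. Of the 5 liver markers listed, 1 was well above background on all arrays and 3 were tested, with 0 called by limma and medians of 0.97 in NNK+SECY against NNK and 0.55 in SECY against Untreated. Adipocyte markers, whose defining genes Adipoq, Plin1 and Cidec were all tested, had 0 of 11 called, and their summed log2 signal ranged from 11.83 to 13.74 in NNK+SECY, 12.38 to 13.31 in SECY, 12.07 to 12.62 in NNK and 12.48 to 12.90 in Untreated mice. On NNK+SECY 3 that sum was 12.37, below the 13.74 of NNK+SECY 1, whose Me1 ratio was 0.28. The part of liver or fat tissue in the Me1 values was not tested.

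**Figure D2:**
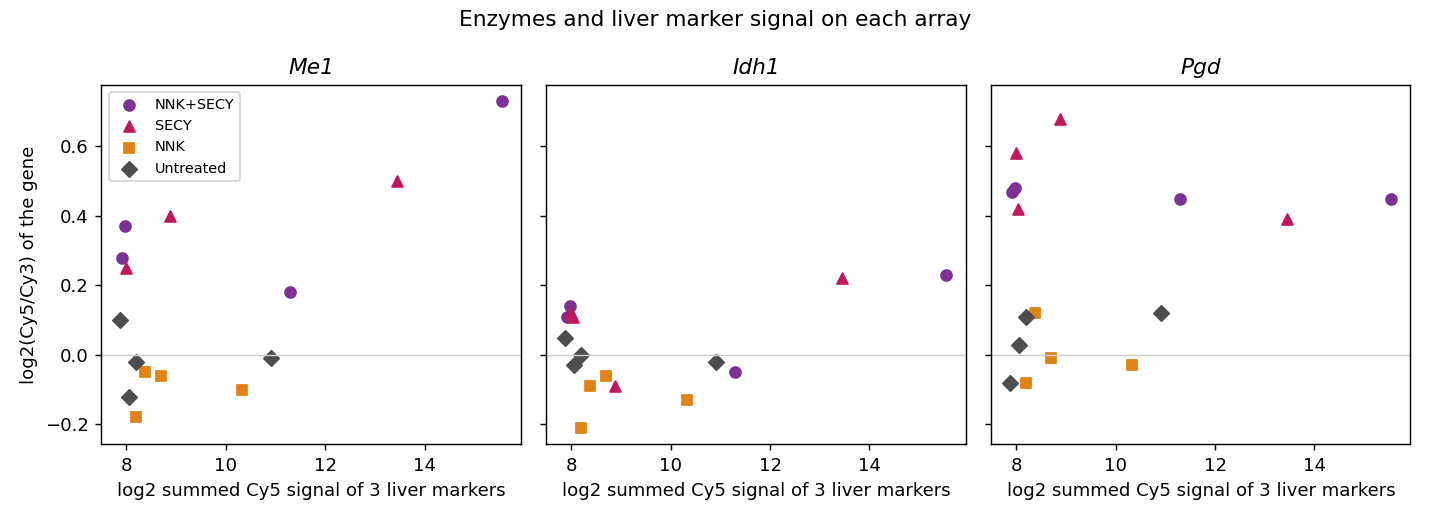
Log2(Cy5/Cy3) of Me1, Idh1 and Pgd against the log2 summed Cy5 signal of the liver markers Alb, Apoa2 and Fgb, with 1 point per array. NNK+SECY 3 at 15.55 and SECY 4 at 13.44 lie at the right and hold the top values of their groups for Me1 and Idh1, but not for Pgd.

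Idh1, cytosolic isocitrate dehydrogenase, also runs high in liver. Its log2 ratios were 0.11, -0.05, 0.23 and 0.14 in NNK+SECY mice, 0.12, 0.11, -0.09 and 0.22 in SECY mice, -0.21, -0.09, -0.13 and -0.06 in NNK mice, and 0.05, -0.03, -0.02 and 0.00 in Untreated mice. Every NNK+SECY value was above every NNK value, and the difference of 0.23 ± 0.07 was not called (adjusted p = 0.127). Without NNK+SECY 3 and SECY 4 it was 0.19 (adjusted p = 0.303). In SECY against Untreated it was 0.09 ± 0.07 (adjusted p = 0.824), with SECY 3 below all Untreated mice and the other SECY mice above them. Although not called with all arrays, Idh1 was called when certain single arrays were left out. The difference between NNK+SECY and NNK was called without SECY 3 (0.23, adjusted p = 0.0412) and without NNK+SECY 2 (0.28, adjusted p = 0.0433). The 8-against-8 difference of 0.16 had an adjusted p of 0.104 with all arrays and 0.014 without SECY 3.

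H6pd is the counterpart of G6pdx inside the endoplasmic reticulum, where its NADPH serves steroid reduction. It was the enzyme with the smallest change on selenocystine, 0.02 over the 8 mice per diet with a 95% interval of -0.10 to 0.15, and -0.01 without SECY 3. Its ratios ran between -0.09 and 0.09 in NNK+SECY, -0.15 and 0.25 in SECY, -0.14 and 0.01 in NNK, and -0.13 and 0.21 in Untreated mice.

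**Figure D3:**
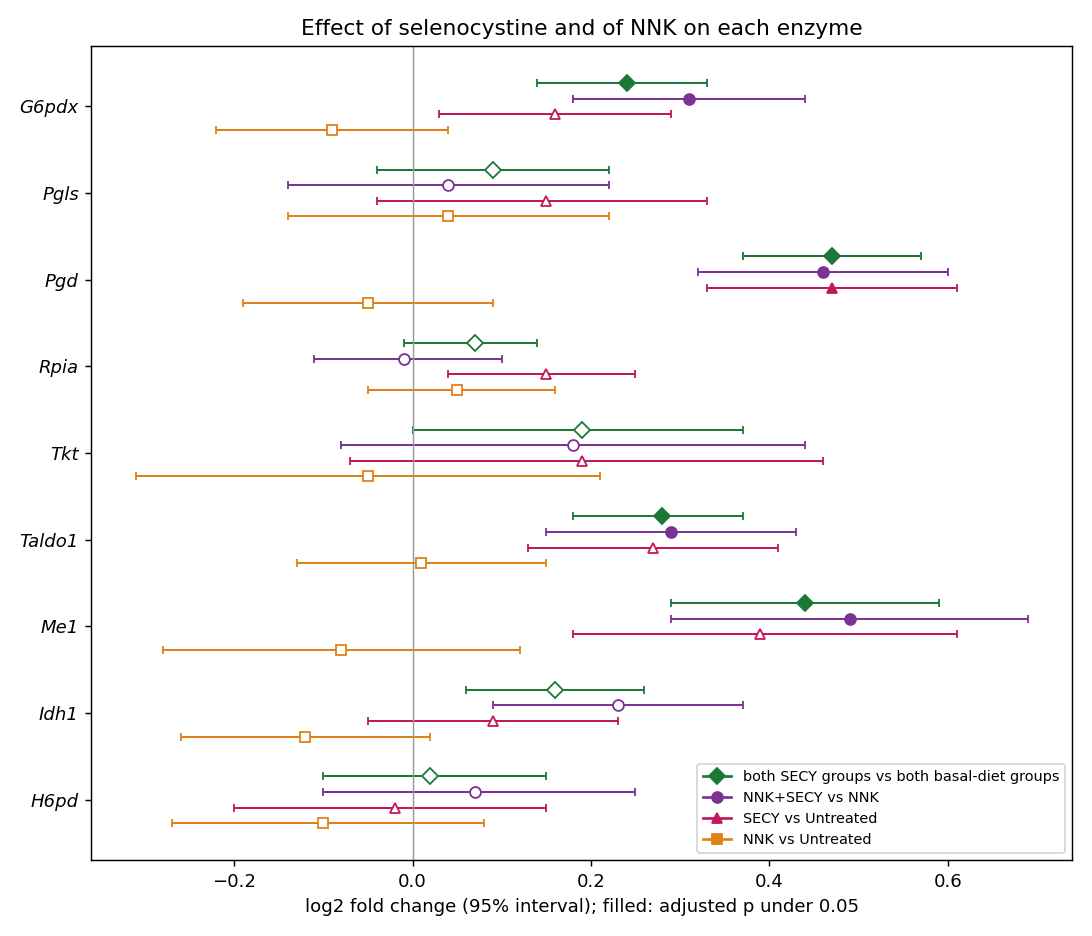
Log2 fold change of each enzyme with its 95% interval in 4 comparisons, with filled symbols for adjusted p under 0.05. Pgd is called in all 3 selenocystine comparisons, G6pdx, Taldo1 and Me1 in 2 of them, and no enzyme in NNK against Untreated.

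Counted by comparison, 4 of the 9 enzymes were called higher in NNK+SECY against NNK, where 0.306% of all genes were. Pgd, Taldo1 and Me1, 3 of the 9, were called higher in NNK+SECY against Untreated, compared with 0.537% of all genes. In both comparisons most called genes of the array were lower rather than higher (306 lower and 65 higher, and 225 lower and 114 higher), while no enzyme was called lower. Groups did not overlap, with the first one higher, for 5 enzymes in NNK+SECY against NNK (3.33% of all genes) and for 3 in SECY against Untreated (1.89%). In the 8-against-8 contrast they did not overlap for Pgd, Taldo1 and Me1, compared with 0.297% of all genes. SECY against Untreated and NNK+SECY against Untreated share the Untreated mice, and both NNK+SECY comparisons share the NNK+SECY mice.

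NNK was not accompanied by a called change in any enzyme, with or without selenocystine. In NNK against Untreated 0 of 9 were called by limma, and 0 had an unadjusted p under 0.05, against 0.32% called of all genes. By the probe used for each gene, the differences ran between -0.12 (Idh1) and 0.05 (Rpia). The second probe of H6pd went the other way from the first, at 0.21 ± 0.12 against -0.10 ± 0.08, and was not called (limma unadjusted p = 0.103). Idh1 was the one enzyme whose 4 NNK values, -0.21 to -0.06, all lay below the 4 Untreated values, -0.03 to 0.05, as did 1.35% of all genes. Between NNK+SECY and SECY the differences ran between -0.10 (Rpia) and 0.06 (G6pdx), and again 0 were called or had an unadjusted p under 0.05, against 0.00942% called of all genes. The 95% interval of the NNK effect on Pgd was -0.19 to 0.09 without selenocystine and -0.20 to 0.09 with it. No interaction was called among the 9 (0.00471% of all genes), and 1 had an unadjusted p under 0.05. The interaction was 0.15 for G6pdx (95% interval -0.04 to 0.34) and -0.01 for Pgd (-0.21 to 0.19).

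The sample and the pool were also read separately, as log2 signal in Cy5 and Cy3. The pool is the same RNA on every array, so that its own Cy3 shifts come from the array and not the mouse. Both signals were taken after loess and Aquantile, which use both colours, so the Cy3 values are not wholly free of the mouse. For Pgd, Cy5 was 0.73 higher in SECY than in Untreated mice, and Cy3 was 0.26 higher. The Pgd shifts in NNK+SECY against NNK were 0.60 in Cy5 and 0.14 in Cy3. For Me1 the same shifts were 0.41 in Cy5 and -0.08 in Cy3, so that most of the difference lay in the lung channel. G6pdx shifted by 0.41 in Cy5 and 0.10 in Cy3, and Taldo1 by 0.36 and 0.08. For Idh1 the order was the reverse, with 0.10 in Cy5 and -0.13 in Cy3, so that more of its ratio came from the pool's signal.

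**Figure D4:**
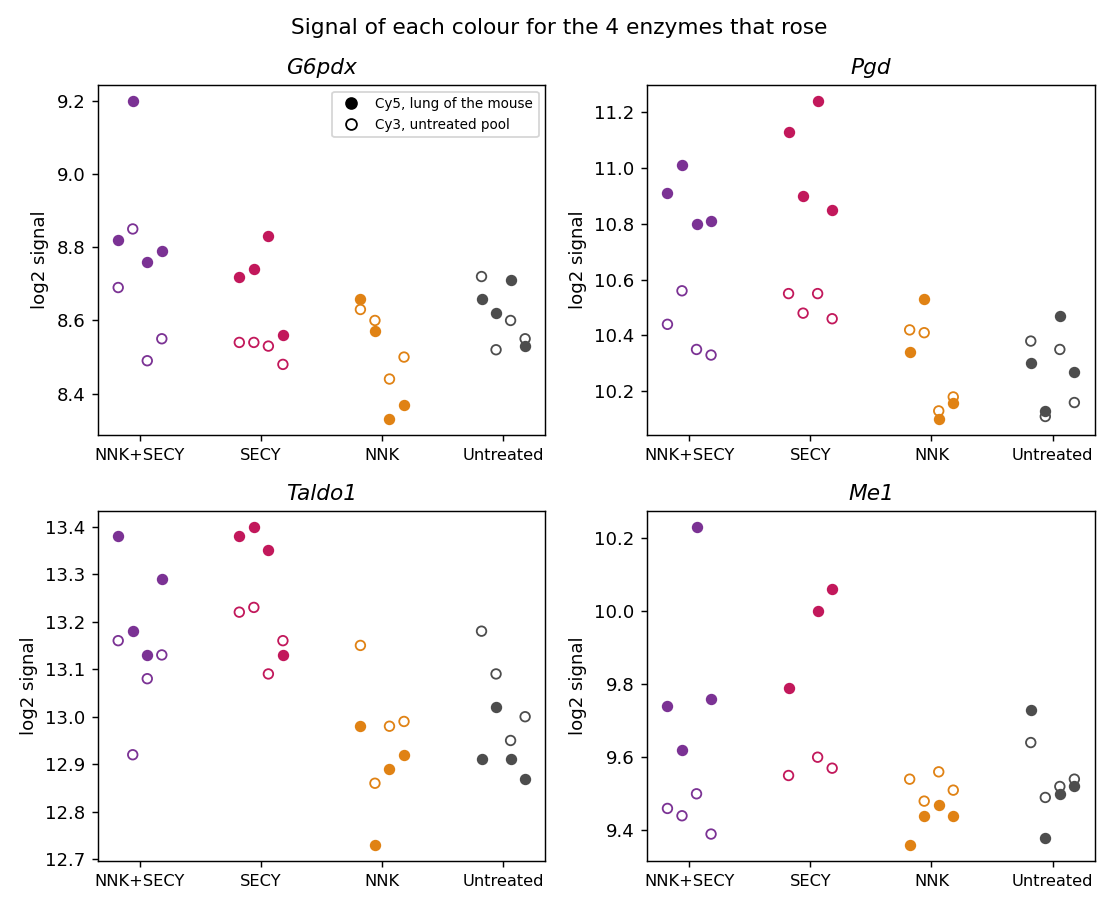
Log2 signal of G6pdx, Pgd, Taldo1 and Me1 by group, with filled points for the lung of each mouse (Cy5) and open points for the untreated pool (Cy3). In Pgd all 8 filled points of the selenocystine groups lie between 10.80 and 11.24, above the basal-diet points at 10.10 to 10.53.

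A second probe of Pgd and of Me1 gave a check within the array. The dimmer Pgd probe read 0.35, 0.39, 0.45 and 0.55 in NNK+SECY mice, 0.36, 0.37, 0.60 and 0.25 in SECY mice, -0.03, 0.11, 0.05 and -0.05 in NNK mice, and 0.03, -0.03, 0.08 and 0.07 in Untreated mice. Again no mouse on selenocystine fell among those on the basal diet. It rose by 0.42 ± 0.07 in NNK+SECY against NNK and by 0.36 ± 0.07 in SECY against Untreated (adjusted p = 0.00193 and 0.026 over all probes). The dimmer Me1 probe had a value for SECY 2, of 0.30, and read 0.33, 0.51 and 0.59 in the other SECY mice. It read 0.44, 0.34, 0.93 and 0.51 in NNK+SECY mice, -0.12, 0.21, 0.12 and 0.05 in NNK mice, and 0.22, 0.09, 0.16 and 0.06 in Untreated mice. This Me1 probe rose by 0.49 ± 0.11 in NNK+SECY against NNK (adjusted p = 0.0216) and differed by 0.30 ± 0.11 in SECY against Untreated (adjusted p = 0.377). Probes of 1 gene share their mice, so they are no further replicates. The second probe of H6pd was not called either, at -0.06 and 0.06 in these comparisons.

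**Figure D5:**
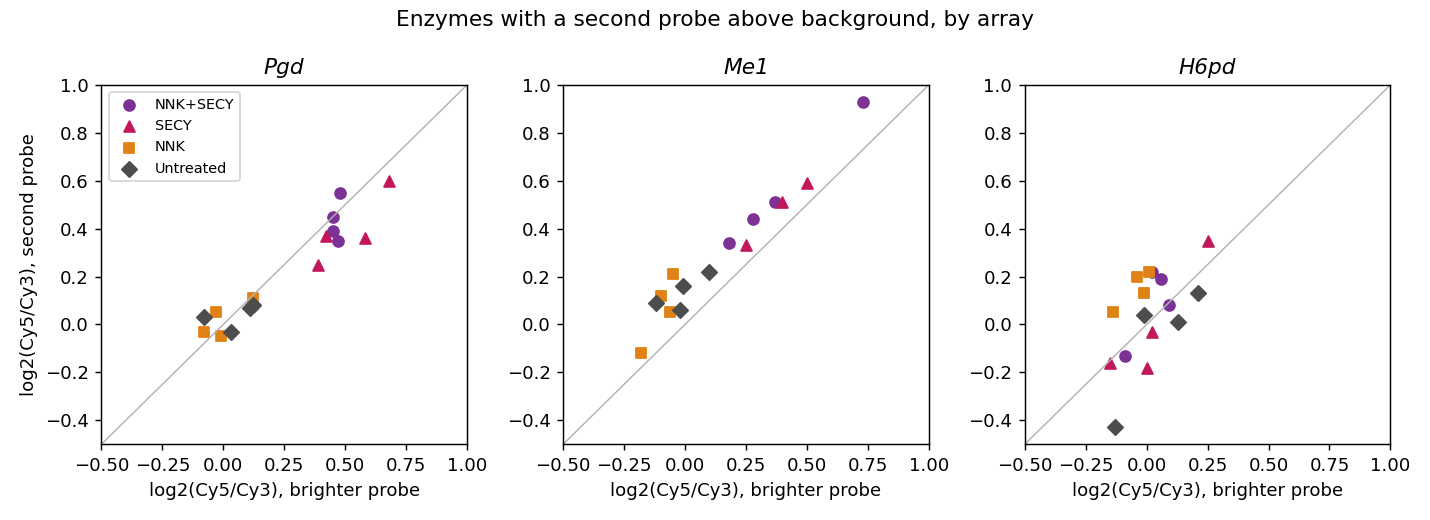
Log2(Cy5/Cy3) of the second probe against that of the brighter probe of Pgd, Me1 and H6pd, with 1 point per array and the line of equal values (SECY 2 is missing for Me1). For Pgd both probes part the selenocystine arrays from the basal-diet arrays, and for H6pd neither does.

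The genes whose ratio followed an enzyme most closely were found by the root mean square difference over the arrays, among 15085 named genes with complete values (15178 for Me1). For Pgd they were Slc48a1, a haem transporter, at 0.114, and the ferritin light chain Ftl1 and its near-identical copy Ftl2-ps, both at 0.118. The copies can share a probe's signal. Slc48a1 was called in SECY against Untreated (0.50) and in NNK+SECY against NNK (0.36), and Ftl1 in neither (0.32 and 0.30). For Me1 they were Tmem117 at 0.122, Htatip2 at 0.137 and Aldh5a1, succinate semialdehyde dehydrogenase, at 0.147, over 15 arrays, and all 3 were called in both comparisons. For G6pdx they were Ascc2 at 0.0948, Tmem43 at 0.0953 and Zcchc12 at 0.0975. Of these only Zcchc12 was called, in NNK+SECY against NNK (0.23) but not in SECY against Untreated. For Taldo1 they were Aldoart2 at 0.0807, Bok at 0.0925 and Ccdc102a at 0.0971, none of them called in either comparison. Among the enzymes themselves, the closest pair was G6pdx and Taldo1, at 0.121. These distances are descriptions over arrays that share 1 pool and the slide sets. The genes were picked on the same arrays that the comparisons use, so their calls partly follow from the choice.

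No other measured gene of the pentose phosphate pathway was called on selenocystine. Of 10 further pathway and ribose enzymes, 8 were measured and 0 were called by limma in SECY against Untreated or in NNK+SECY against NNK, with median differences of 0.03 and 0.05. Of these, Prps1, which makes phosphoribosyl pyrophosphate, differed by 0.14 in SECY against Untreated (unadjusted p = 0.0279), and Gpi1, glucose 6-phosphate isomerase, by 0.16 in NNK+SECY against NNK (unadjusted p = 0.0909). Of 13 other producers of NADPH or NADP, 12 were measured and 0 were called, with medians of 0.05 and 0.04. Mthfd2, a mitochondrial folate enzyme, differed by 0.15 in SECY against Untreated (unadjusted p = 0.046), and Mthfd1, its cytosolic relative, by 0.17 in NNK+SECY against NNK (unadjusted p = 0.0592). In glycolysis 15 of 16 listed genes were measured and 0 were called in these comparisons. The hexokinase Hk1 differed by 0.30 ± 0.09 in SECY against Untreated and by 0.02 ± 0.06 in NNK+SECY against Untreated. The larger SE with SECY shows that Hk1 lacked a value on SECY arrays, so that 0.30 rests on fewer mice. Slc2a1, the glucose transporter GLUT1, differed by 0.25 in SECY against Untreated and by 0.33 in NNK+SECY against NNK (adjusted p = 0.315 and 0.0638), and was called in NNK+SECY against Untreated at 0.38 (adjusted p = 0.0273).

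Several enzymes that spend NADPH rose as well. In a list of 12 redox enzymes most use NADPH, though Srxn1 does not, and most are known NRF2 targets. Of these 12, 6 were called higher in SECY against Untreated (0.212% of all genes) and 6 in NNK+SECY against NNK (0.306%). Their medians were 0.29 and 0.38. The reductase Nqo1, which acts on quinones, rose by 1.43 ± 0.13 and 1.38 ± 0.13. Increases of 1.34 ± 0.13 and 1.29 ± 0.13 were found for Srxn1, which repairs oxidised peroxiredoxins, and of 0.81 ± 0.09 and 0.79 ± 0.09 for Txnrd1, thioredoxin reductase. These are log2 values, and the adjusted p ran between 2.6e-05 and 0.000271. The list was chosen with these responses known. By contrast 0 of 8 NRF2 pathway regulators were called in either comparison, with medians of 0.12 and 0.04. Keap1, which holds NRF2 in check, differed by 0.14 in SECY against Untreated and Sqstm1, which binds Keap1, by 0.21 (unadjusted p = 0.0719 and 0.0735). Cul3, the ubiquitin ligase scaffold that works with Keap1, differed by 0.25 in NNK+SECY against NNK (unadjusted p = 0.0619).

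Of 11 lipogenic enzymes and regulators, 1 was called higher in NNK+SECY against NNK (0.306% of all genes) and 0 were called in SECY against Untreated. Scd1, stearoyl-CoA desaturase, rose by 0.84 ± 0.16 in NNK+SECY against NNK (adjusted p = 0.0115) and differed by -0.05 ± 0.16 in SECY against Untreated (adjusted p = 0.976). Its interaction was 0.88 ± 0.23 with an adjusted p of 0.93, so that a difference between these effects was not called. The list's medians were -0.01 in SECY against Untreated and 0.14 in NNK+SECY against NNK. Among all marker lists, 1 gene was called in these comparisons, the cell-cycle gene Birc5. It was at -0.62 in NNK+SECY against NNK, where 306 of 21243 genes were called lower. Alveolar macrophage markers had 0 of 9 called, with medians of -0.15 in SECY against Untreated and 0.02 in NNK+SECY against NNK. Erythroid markers had 0 of 4 called, with medians of -0.30 and -0.31 in these comparisons, and neutrophil markers 0 of 6, with medians of -0.18 and -0.17. All 4 erythroid markers lay below 0 in both comparisons. The part of differing cell numbers in the enzymes' values was not tested.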

How the data were processed

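Lung RNA of 16 mice was measured on 2-colour Agilent arrays. Per the file headers, the authors read the spots with Feature Extraction 8.1.1.1. Those deposited files give the intensity of each spot and of its background per colour, and the value table deposited beside them holds log2 ratios that differ by at most 0.005 from the scanner's log10 ratio of Cy5 over Cy3 once both are on a log2 scale. Intensity and log2 values were thus the authors' units. No source used here names the genome build of the probe annotation.

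Mean spot intensities were corrected with limma's normexp (offset 50) then loess-normalized array by array, giving control and flagged spots no weight (limma 3.58.1 in R 4.3.3, with data.table at version 1.17.8). Spots of a probe were averaged. A gene took its brightest probe and was tested where that probe's Cy5 signal was well above background throughout 1 or more groups of 4 arrays, which left 21248 of 27703 names. Names came from accessions (22072 of 41174 probes), symbols (6280) and synonyms (4226) of assembly GRCm38.p6, and the other 8596 probes kept the file's name. Per-colour signal was taken after loess and Aquantile.

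A mean for each group was fitted with lmFit and eBayes over all 16 arrays, and p-values were adjusted by Benjamini-Hochberg over all genes tested. The fit was tested on simulated data with independent noise and known changes in SECY. Those data held no slide sets, scan days or outlying arrays, so the test does not reach these limits. Per the labels the mice of a group were biological replicates, and every RNA had a quality index above 9. Across arrays, 66.3% to 79.3% of spots were well above background in Cy5 and 55.9% to 71.7% in Cy3, and 4 arrays per group limit the precision. Alternatives covered background correction, normalization, probe choice, filters, array weights, slide and replicate blocks and left-out arrays. The members, lists and alternatives were chosen with earlier results of these data known. Genes outside the 9 were named by rule: the 3 closest patterns of each called enzyme, and, per diet comparison, up to 3 called (or else up to 2 uncalled) members of each list with the smallest p. Beside that rule the text names G6pd2, Birc5 and defining adipocyte and liver markers.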

Additional observations from a re-analysis of the deposited data

Results flagged for a closer look

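Both values below come from the array SECY 3 and lay apart from the other 3 of their group by more than Dixon's 95% limit for 4 samples, which is set on the gap to the nearest value over the range. Tkt in SECY 3 was 0.85, with the next SECY value at 0.21 and a gap of 0.853 of the range. Pgls in SECY 3 was 0.23, with the next at -0.06 and a gap of 0.911. In all, 35 groups of 4 values were examined and 2 were past the limit, and at this limit chance is expected to put about 5% of groups past it. No enzyme had a called interaction of NNK and selenocystine.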

How the results depend on the processing

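Of 1899 log2 differences of single enzymes under alternative settings, 1846 kept their side of the threshold, 40 lost a call, 13 gained one and 0 called values changed sign. These settings are not independent. Aquantile after loess left the log ratios as they were, and the deposited table nearly repeats the scanner software's ratios. Leaving out an array outside a comparison kept its log2 difference and changed only the estimate of spread. In the 8-against-8 diet contrast, Pgd, Me1, Taldo1 and G6pdx were called in all 29 alternatives. In SECY against Untreated, where 1 enzyme was called, 4 were called from Cy5 signal alone (with 4619 genes called in all), 0 from only the arrays compared, 2 with array weights and 2 with SECY 4 and NNK+SECY 3 left out together, which was chosen after seeing the data. Leaving out single arrays gave 1 to 2, with 2 without SECY 4 or without NNK+SECY 3. In NNK+SECY against Untreated, with 3 called, 1 was called with the scanner software's processed signals, with the authors' deposited table, with median centring in place of loess and with only the arrays compared. Leaving out single arrays gave 1 to 3, with 1 without Untreated 1, Untreated 4, NNK+SECY 1 or NNK+SECY 4. In NNK+SECY against NNK, with 4 called, leaving out single arrays gave 2 to 5, with 2 without NNK 4. Between NNK+SECY and SECY 1 was called from Cy5 signal alone, against 0. Only the arrays compared means fewer samples, and elsewhere the cause was not tested. With a replicate block 1, 3, 4 and 0 enzymes were called in these comparisons, and the numbers were not shown to pair the mice (correlations of same-numbered arrays from -0.122 to 0.503). A block for the scan day was not run, since the day is a sum of group terms, and slide as a fixed block could be fitted only for the NNK comparisons and the interaction. Dim probes limit the second probes of Tkt.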
